A study of Mus musculus with 9 samples.

Results

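The data compared Dnmt TKO mouse embryonic stem cells (ESCs) carrying a Dnmt3a2 construct labelled WWD with TKO cells carrying none. The comparison was made at CpG positions that passed a rule on read depth. The assay was RRBS (reduced representation bisulfite sequencing), which reads CpGs near the cut sites of the enzyme MspI. All 5 groups of the series (9 samples) are of the J1 line at passages 7 to 10. WWD has 2 samples, WT (wild-type Dnmt3a2) 2, R (a Dnmt3a2 construct labelled R) 2, C (no construct recorded) 2 and TKO 1. The labels give neither the promoter that drives the constructs, nor the residues changed in WWD, nor whether a line is 1 clone. They name 1 table for both WWD samples and 1 for TKO, so each value below is that of a single table of reads, called a pool. No spread between replicates can be given, and each test compares the reads of 2 pools and not conditions. Construct levels were not analysed here, so the amount of protein and the mutation cannot be told apart.

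The positions described were nuclear CpG positions, counted per strand, with at least 10 reads in both WWD and TKO and with at least 0.5 times as many reads in TKO as in WT. They are called full-depth positions and numbered 914286, of 1273389 nuclear positions covered in WWD and TKO. Median coverage there was 136 reads in WWD and 133 in TKO. At the 354714 other positions that are also listed for WT, the medians were 28 reads in WWD and 16 in TKO, and the mean levels were 13.4% in WWD and 1.35% in TKO. Just inside the depth limit, at TKO to WT read ratios of 0.5 to 0.55, the mean level was 2.96% in WWD and 0.223% in TKO over 20404 positions. Just outside it, at ratios of 0.45 to 0.5, it was 3.25% in WWD and 0.255% in TKO over 14574 positions. As a check on conversion by bisulfite, mitochondrial CpGs averaged 0.12% in WWD (228 positions) and 0.0771% in TKO (246 positions).

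Dnmt3a is a de novo DNA methyltransferase: it adds methyl groups to cytosines of unmethylated CpGs. Dnmt3a2 is its shorter isoform, the main one in ESCs. The ADD domain of Dnmt3a binds the tail of histone H3 when H3K4 is unmethylated, and CpG islands, which are dense in CpGs and often carry methylated H3K4, mostly stay free of DNA methylation. Dnmt1 copies methylation to the new strand after replication. TKO cells lack Dnmt1, Dnmt3a and Dnmt3b, so a methyl group laid down by a construct is not copied by Dnmt1 and is diluted as cells divide.

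Methylation appeared in WWD cells at a minority of positions, and mostly at low levels. The mean level was 3.39% in WWD (SD over positions 7.38) and 0.171% in TKO (SD 0.65), a mean gain of 3.22 percentage points over 914286 positions. Pooled over reads, the level was 3.42% in WWD (Wilson 95% interval 3.41 to 3.42) and 0.163% in TKO (0.163 to 0.164). Such intervals cover counting error only, since PCR copies of a molecule were not marked. C, the second group with no construct recorded, had a mean of 0.26% over the 910006 of these positions that it covers.

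The spread in WWD was strongly skewed. In WWD 53.6% of positions had no methylated read, against 86.3% in TKO and 84.0% in C. The median number of reads at the WWD positions with none was 125, at which a count of 0 allows a level of up to 2.4%. Levels above 5% were found at 18.97% of positions in WWD, against 0.249% in TKO. The 90th, 95th and 99th percentiles lay at 10.8%, 18.4% and 37.1% in WWD, against 0.585%, 1.12% and 2.78% in TKO.

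**Figure D1:**
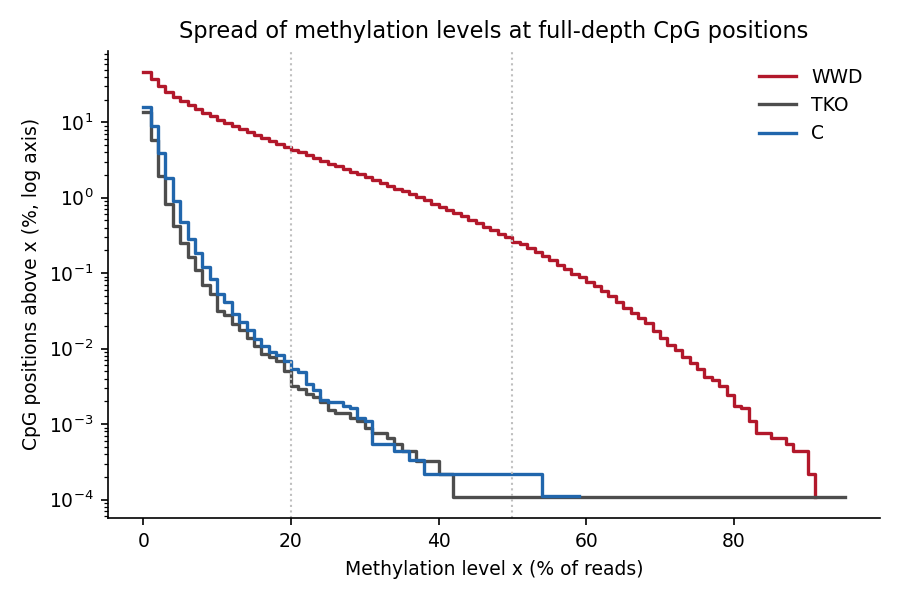
Share of full-depth CpG positions (percent, log axis) with a methylation level above the value on the x axis (percent of reads), for WWD, TKO and C; dotted lines mark 20% and 50%. Above 20% lie 4.30% of positions in WWD, against 0.00317% in TKO and 0.00538% in C.

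Sites above 20% were 39308 in WWD, against 29 in TKO and 49 in C. Sites above 50% were 2387 in WWD, against 1 in TKO and 2 in C, and sites above 80% were 16 in WWD, 1 in TKO and 0 in C. With the depth rule set against C in place of WT, 0.615% of positions in WWD were above 50%, against 0.261% with the rule used, and with no depth rule 9.71% were above 20% and 2.97% above 50%. The highest level in WWD was 91.3%. The WWD sites above 20% were nearly unmethylated in TKO and C: the 39308 sites averaged 31.3% in WWD, 0.153% in TKO and 0.518% in C. Of these sites, 98.8% were also above 20% in WT, where 241975 positions (26.5% of all at full depth) passed that level. The shared sites were 16.1% of the WT list. The sites over 20% in WWD averaged 60.4% in WT and 62.6% in R, against 13.2% and 13.3% over all full-depth positions covered in each. WWD was above WT at 3.09% of the sites over 20%. It was so at 5.86% of positions with over 5 to 20% in WWD and at 30.9% of those with over 0 to 5%.

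Position by position, 36524 of the 914286 full-depth positions were higher in WWD and 3 (0.000328%) were lower (two-sided Fisher's exact test on reads, Benjamini-Hochberg adjusted p under 0.01 over all 1273389 positions covered in both pools, and at least 20 percentage points). The full-depth share called higher was 3.99%, against 6.2% of all positions covered in both pools and 11.8% of those outside the depth rule. The share called lower was 0.00118% of all positions covered in both pools and 0.00334% of those outside the depth rule. With a minimum of 10 points, 81731 full-depth positions were called higher (8.94%, against 9.78% of all positions), and with 50 points 2477 were (0.271%, against 2.59% of all positions). Called positions made up 91.9% of those above 20% in WWD.

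The 5 called positions with the largest gain among those with at least 50 reads in both pools held 81.5% to 90.9% in WWD and no methylated read in TKO (mm9 coordinates, as all here). On chromosome 12, base 73334563 of the reverse strand held 90.9% in WWD (70 of 77 reads, Wilson 95% interval 82.4 to 95.5). TKO had 0 of 80 reads there, which allows a level of up to 3.75%, and the adjusted p of Fisher's exact test was 4.93e-34. WT held 89.9% and R 86.96% at the same base, so WWD and WT levels were close there. Base 115988796 of chromosome 3, on the forward strand, held 85% in WWD (60 reads) and 0% in TKO (51 reads). The others were bases 152637990 of chromosome 3, 12761144 of chromosome 16 and 84402031 of chromosome 17, with 82.1%, 81.8% and 81.5% in WWD and 0% in TKO. Their 1 kb tiles held 7 to 14 covered positions. C, in which no construct is recorded, held 11.3% at base 152637990, 4.62% at base 12761144 and at most 2.94% at the other 3 bases.

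The 3 positions lower in WWD are named because they are so few, after their values were seen. Base 107612540 of the X chromosome held 0% in WWD (11 reads) and 95.9% in TKO (49 reads), and C held 19.05%, WT 22.2% and R 28.6%. Base 126437446 of chromosome 2 held 1.46% in WWD and 30.2% in TKO, and base 81035457 of chromosome 10 held 0% in WWD and 25% in TKO.

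The gain varied with how many covered CpG positions lay nearby. Density was taken as the number of positions that the WT table lists in the 1 kb tile, with both strands counted. It counts only CpGs that RRBS read, so a tile called sparse may hold CpGs that were not read. The CpG density of the genome itself was not measured. In tiles with fewer than 5 such positions, WWD had 6.23% and TKO 0.251% (176680 full-depth positions). With 5 to 9 positions WWD had 7.10% and TKO 0.193%. With 10 to 19, WWD had 5.18% and TKO 0.17%. From there the level dropped steeply: WWD had 1.49% and TKO 0.142% with 20 to 39, and WWD had 0.353% and TKO 0.13% with 40 or more. Tiles with 40 or more held 37.7% of the full-depth positions and 2.60% of the summed gain. The sparsest 2 classes, with 19.3% and 16.8% of the positions, carried 35.9% and 36.1% of the gain.

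The highest gain was not in the sparsest tiles. Position counts of 1 and 2 per tile had mean gains of 4.40 and 5.31 points, counts of 5 and 6 had 7.05 and 6.95 points, and a count of 10 had 6.56 points. By 20 positions per tile the gain was 2.89 points, by 30 it was 1.02 and by 60 it was 0.292. The share of positions above 20% in WWD followed the same course, with 4.67% in tiles of 1 position, 10.1% in tiles of 5, 3.62% in tiles of 20 and 0.0237% in tiles of 60.

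Place in the read moved with this pattern. In an RRBS read the first CpG belongs to the MspI cut site. On isolated fragments, runs of 30 to 280 bp separated from other listed positions by more than 500 bp, the first CpG of an end held 5.42% in WWD and 0.349% in TKO (105424 positions). CpGs 5 to 45 bp inside an end held 8.83% in WWD and 0.0599% in TKO (70764 positions). The first CpG was thus lower than the inner ones in WWD and higher in TKO. In WT the levels were 28.8% at the first CpG and 29.6% inside. Within inner CpGs the gain was 9.20 points in tiles with fewer than 5 positions, 9.43 points with 5 to 9 and 6.60 points with 10 to 19. Over all positions the first 2 of these classes gained 5.98 and 6.91 points. The fall towards dense tiles held at both places: with 20 to 39 positions the gain was 1.43 points inside and 1.10 at the first CpG, and with 40 or more it was 0.472 points inside (248 positions) and 0.534 at the first CpG (70 positions).

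**Figure D2:**
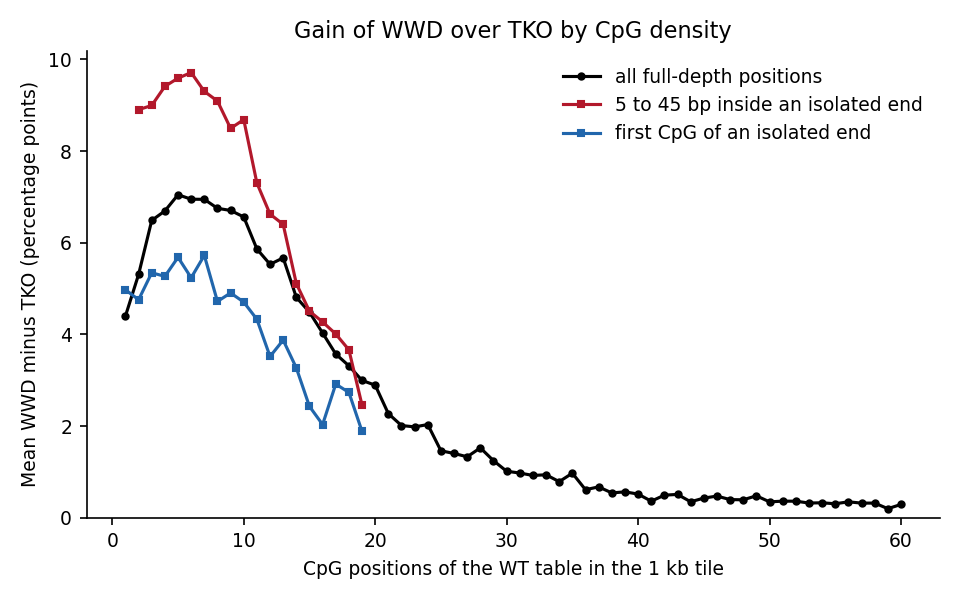
Mean WWD minus TKO (percentage points) against the number of CpG positions that the WT table lists in the 1 kb tile, over all full-depth positions, over CpGs 5 to 45 bp inside an end of an isolated fragment and over the first CpG of such ends. Over all positions the gain peaks at 7.05 points in tiles of 5 positions and is 0.292 points in tiles of 60; inner CpGs lie above first CpGs wherever both are drawn.

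By distance into the read, WWD held 8.36% at 5 to 10 bp, 9.12% at 11 to 20 bp, 9.30% at 21 to 30 bp, 8.58% at 31 to 40 bp and 7.20% at 41 to 50 bp. TKO held 0.0488% to 0.087% over the same distances. WT held 29.2% to 30.2% at 5 to 30 bp and 24.6% at 41 to 50 bp. Nearer the end, at 1 to 4 bp, WWD held 5.74%, TKO 0.0866% and WT 23.6%. Deeper inside, at 51 to 100 bp, WWD held 5.03%, TKO 0.201% and WT 20.6%. At 101 to 280 bp WWD held 5.41%, TKO 0.185% and WT 20.5%. What part the place in the read has in the difference between the sparsest tiles and those of 5 positions was not tested.

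Gain in dense tiles was rare but present. Of 17273 tiles with 20 or more WT positions and at least 5 full-depth positions, 228 (1.32%) had a mean gain of at least 10 points and 17 (0.0984%) of at least 20 points. In tiles with 5 to 9 positions 3972 of 15038 (26.4%) had at least 10 points and 523 at least 20. Among 9454 tiles with 40 or more positions, 6 reached 10 points, 0 reached 20 and 33 (0.349%) reached 5. The median tile gained 5.90 points with 5 to 9 positions, 3.69 with 10 to 19, 0.325 with 20 to 39 and 0.0976 with 40 or more. Density counted from TKO in place of WT gave 99 of 14147 tiles of 20 or more positions with at least 10 points. With no depth rule, 1 kb tiles gave 647 of 17630. Tiles of 2 kb gave 408 of 16629, but the limit was kept at 20 positions, so these tiles could be sparser per kb.

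**Figure D3:**
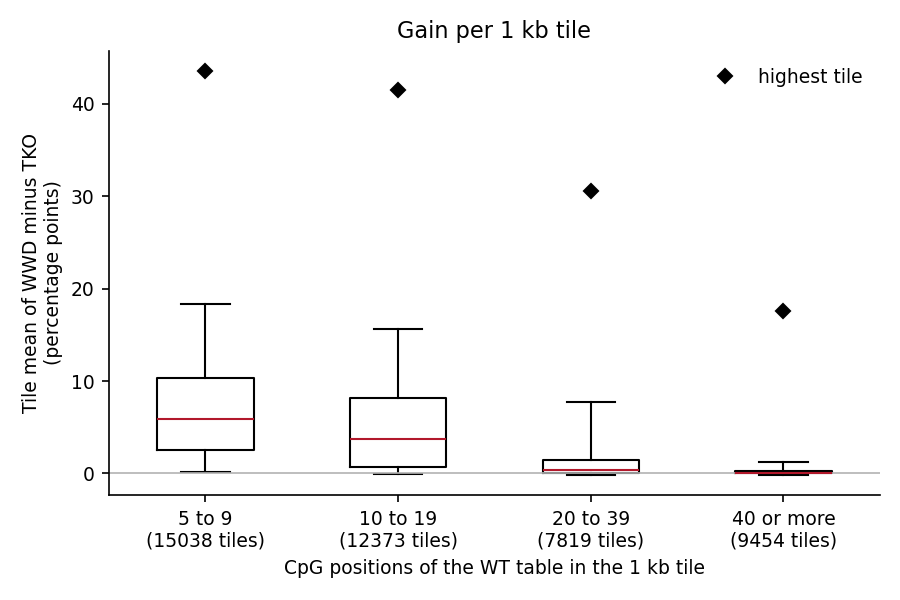
Mean WWD minus TKO (percentage points) per 1 kb tile with at least 5 full-depth positions, by the number of CpG positions that the WT table lists in the tile; boxes show quartiles with the median in red, whiskers the 5th and 95th percentiles, and diamonds the highest tile. The highest tile gains 43.5 points with 5 to 9 positions and 17.6 points with 40 or more, where the 95th percentile is 1.19 points.

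Single positions gave the same picture. Of the called positions, 1546 lay in tiles with 20 to 39 WT positions, 1.26% of the full-depth positions of that class, and 225 in tiles with 40 or more, 0.0653% of that class. In tiles with fewer than 5 positions the share called was 7.07%, and with 5 to 9 it was 9.41%. Sites above 50% numbered 102 (0.083% of the class) in tiles with 20 to 39 positions and 7 (0.00203%) in tiles with 40 or more. In the sparsest 2 classes they numbered 748 (0.423%) and 1007 (0.654%). In tiles with 40 or more positions WWD had 249 sites above 20% (0.0723% of the class), against 6 in TKO (0.00174%) and 3 in C (0.000873%).

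Within dense tiles the mean gain per position was larger where fewer WT positions lay close by. The gain was not confined to such places. In tiles with 40 or more positions, 85 called positions had a local count of 10 to 19, which is 0.109% of the positions with that count. Another 40 had one of 20 to 39, which is 0.0213%. The share called was higher at lower local counts, 0.7% with 1 to 4 and 0.374% with 5 to 9. Local density was the number of WT positions within 100 bp on either side, the position itself included. In tiles with 40 or more positions the called positions had a median of 11 WT positions within 100 bp (quartiles 7 and 16), and the positions not called a median of 26 (18 and 35). Fewer than 10 was the local count at 44% of the called and 6.47% of the other positions. Both sets were deeply read, with median coverages in WWD of 136 and 133 reads. In the same tiles the mean gain was 1.12 points with 1 to 4 local positions, 0.725 with 5 to 9, 0.343 with 10 to 19, 0.151 with 20 to 39 and 0.0606 with 40 or more. In tiles with 20 to 39 positions it was 2.86, 2.34, 1.33, 0.458 and 0.0632 points in the same order.

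Among tiles with 20 to 39 positions and at least 10 at full depth, the largest gain was at chr11:96585001-96586000. Over 19 full-depth positions it held 30.6% in WWD and 0.134% in TKO, with 45.7% in WT and 0.272% in C. Pooled over reads the level was 27.6% in WWD (3187 read calls, Wilson 95% interval 26.1 to 29.2) and 0.145% in TKO (2757 read calls, 0.0564 to 0.373). Each read adds a call for every CpG on it, so these intervals are too narrow. Positions within the tile differed widely, with levels in WWD of 2.87% to 68.5% and in TKO of at most 0.909%. On 29 bp of the reverse strand, from 96585593 to 96585621, 6 neighbouring positions held 39.2% to 68.5% in WWD and averaged 0.295% in TKO. The position 21 bp further on held 3.42% in WWD and 0% in TKO.

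The next 4 tiles of this class lay at chr18:79055001-79056000, chr15:79882001-79883000, chr10:94833001-94834000 and chr4:153902001-153903000. WWD held 28.2%, 25.3%, 25.1% and 23.0% in them, and TKO at most 0.446%. WT held 44.4% to 54.2% in the same 4 tiles. In each of the 4 at least 1 position had a level of at most 1.08% in WWD while others were above 50%.

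Among tiles with 40 or more positions and at least 10 at full depth, the largest gain was at chr13:45663001-45664000. Its 19 full-depth positions averaged 14.3% in WWD and 0.153% in TKO, with 37.8% in WT. A single base there, 45663611, held 64.5% in WWD, against 0% in TKO, and the base 16 bp on held 0.909% in WWD. The next tile, at chr11:3093001-3094000, held 12.3% in WWD and 0.0501% in TKO as a mean over positions, and 7.12% in WWD and 0.163% in TKO pooled over reads. Its 23 full-depth positions took 49229 read calls in WWD, while their median coverage was 26, so a few positions had most of the reads, and only 1 position was called. The other 3 lay at chr12:30687001-30688000, chr5:122319001-122320000 and chr10:86371001-86372000, with 11.1%, 11.1% and 10.2% in WWD and at most 0.226% in TKO. WT held 40.2%, 25.9% and 28.2% in these.

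**Figure D4:**
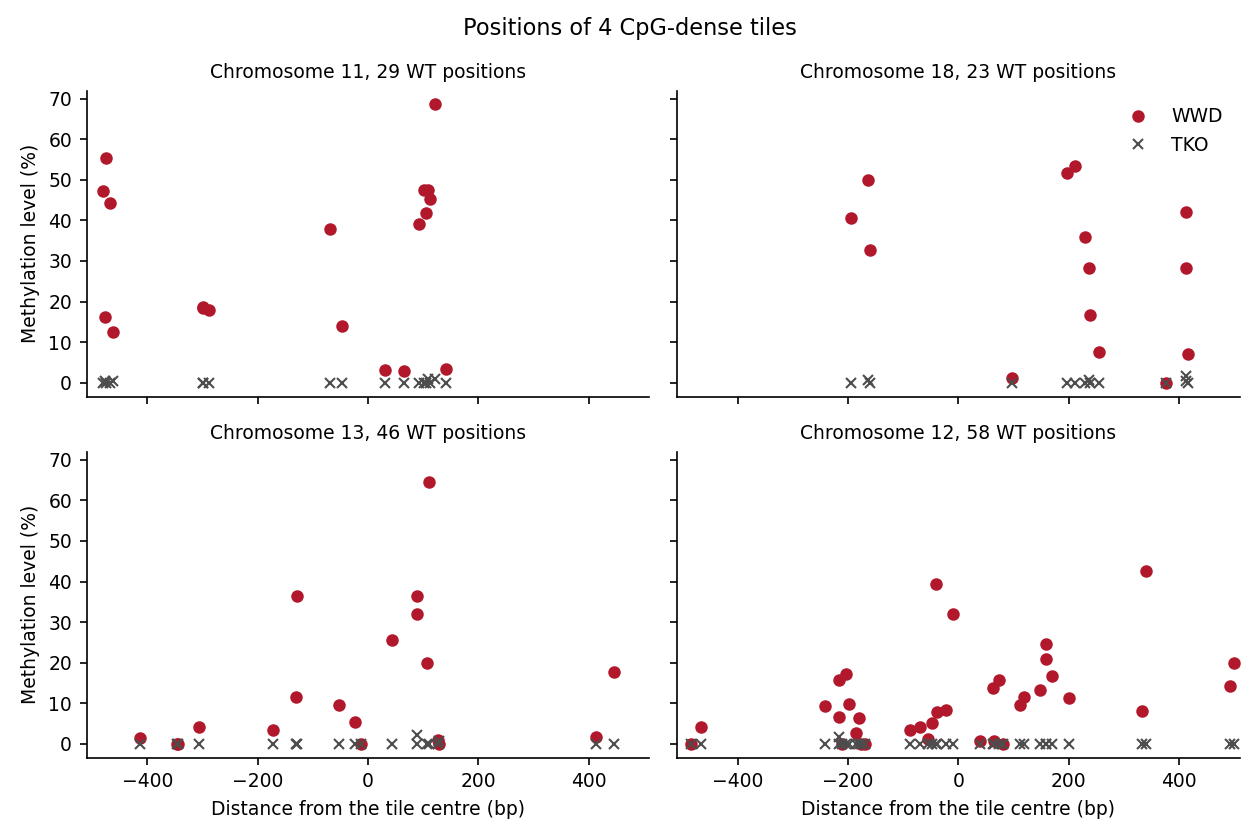
Methylation level (percent of reads) of each full-depth position against its distance from the tile centre (bp) in WWD and TKO, for the leading 2 tiles with 20 to 39 WT positions (top) and, among those with 40 or more whose median WWD coverage was at least 50 reads, the leading 2 (bottom). WWD levels range from 0% to 68.5% within these 4 tiles, and TKO levels stay at or below 2.17%.

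Across all densities the largest gain of a tile with at least 5 full-depth positions was 43.5 points, at chr4:42100001-42101000. Its 5 positions, in order along the chromosome, held 41.3%, 57.1%, 50.4%, 5.15% and 65.7% in WWD, and 0%, 0%, 0%, 0% and 2% in TKO. Of these, 4 passed the test and the one at 5.15%, which lay 4 bp from the highest, did not (97 reads in WWD and 44 in TKO). The next 2 tiles were at chr14:95212001-95213000 and at chr4:130944001-130945000. They held 42.5% and 42.4% in WWD, against 0.649% and 0.92% in TKO, and 64.7% and 72.7% in WT. The next 6 lay on chromosome 15 from 84099001, chromosome 8 from 111519001, chromosome 10 from 118907001 and from 127150001, chromosome 13 from 99462001 and chromosome 12 from 113276001. They held 38.8% to 39.7% in WWD and 0% to 0.29% in TKO. The 10th, on chromosome 10 from 8264001, rested on only 57 read calls in WWD, and none of its 5 positions passed the test. In the 9 others R and WT were above WWD.

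Sites above 20% lay near each other more often than sites below, but rarely in long runs. Of the 39308 sites, 37505 had another full-depth position within 500 bp, and 48.9% of these had 1 above 20%. Of positions at or below 20% that had a neighbour within 500 bp, 12.4% had 1 above 20%. These shares are not matched for density. Tiles with 40 or more WT positions held 37.7% of the full-depth positions but only 249 of the 39308 sites. Runs of consecutive positions above 20%, with gaps of at most 500 bp, were mostly of length 1, which held 71.3% of the sites. Runs of 2 held 21.2%, runs of 3 to 4 held 6.91% and runs of 5 to 9 held 0.618%, in 46 runs. No run had 10 positions or more. Run length is also limited by how many full-depth positions lie together, and no expected run length was computed.

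The longest runs had 7 positions each. On chromosome 13, bases 112342431 to 112342461 of the forward strand held 21.4% to 43.8% in WWD and 0% on average in TKO, with 60.9% in WT. On chromosome 4, from 107275626 to 107276190, 7 positions held 20.8% to 38.8% in WWD, and TKO averaged 0.2%. The next run was that of 6 positions on chromosome 11 given above.

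Likeness between neighbours was greatest within 50 bp and did not fall steadily beyond. Pairs on the same strand were first taken in tiles with fewer than 10 WT positions. That limit narrows the range of density but holds neither density nor place in the read constant. There, 32.0% of partners 2 to 10 bp from a site above 20% were also above 20%, against 8.92% of partners of other positions. At 11 to 50 bp the shares were 20.03% and 9.48%. Pairs this close can lie on the same reads. Further apart, at 51 to 100 bp, 101 to 200 bp, 201 to 500 bp and 501 to 1000 bp, partners of sites above 20% were above 20% in 10.9%, 15.4%, 13.5% and 14.6% of pairs. Partners of other positions were so in 7.27%, 8.13%, 8.86% and 9.38%. At 5001 to 20000 bp the shares were 10.7% and 9.83%. Pearson's r between paired WWD levels was 0.381 at 2 to 10 bp (43444 pairs) and 0.212 at 11 to 50 bp (155331 pairs). It was 0.0873 at 51 to 100 bp (10993 pairs), below the 0.15 at 101 to 200 bp (20843 pairs), 0.0979 at 201 to 500 bp (24275 pairs) and 0.0947 at 501 to 1000 bp (22318 pairs). At 1001 to 5000 bp it was 0.0373 and at 5001 to 20000 bp 0.0232. Positions of 1 pool share libraries and, where close, reads, so this describes the pool.

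**Figure D5:**
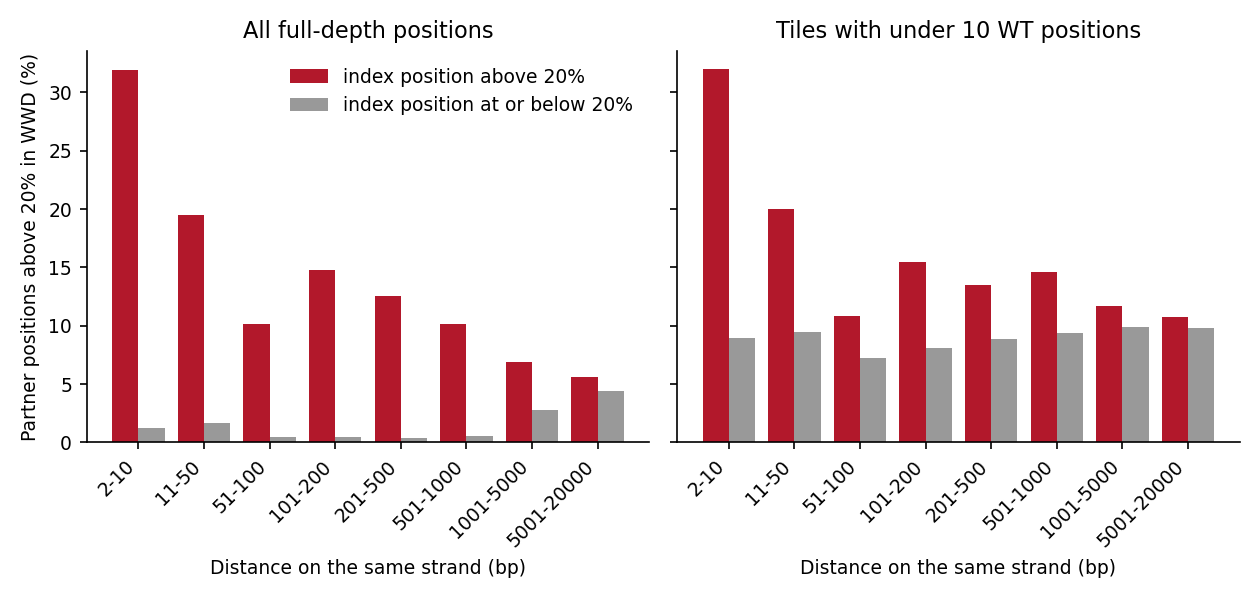
Share of partner positions above 20% in WWD (percent) by distance on the same strand (bp), for index positions above 20% and for those at or below 20%, over all full-depth positions (left) and in tiles with under 10 WT positions (right). In the right panel the shares are 32.0% and 8.92% at 2 to 10 bp and 10.7% and 9.83% at 5001 to 20000 bp.

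Over all densities the contrast at 501 to 1000 bp was wider, 10.2% against 0.592%, and 74.3% of the sites above 20% lay in tiles with fewer than 10 positions. For sites above 50% in tiles with fewer than 10 positions, 8.41% of partners at 2 to 10 bp were above 50%, against 0.733% of partners of other positions. At 11 to 50 bp it was 4.82%, against 0.679%. Further apart the order varied: it was 0% against 0.329% at 51 to 100 bp (72 index entries above 50%), 0.995% against 0.48% at 101 to 200 bp (201 entries) and 0.741% against 0.555% at 201 to 500 bp (270 entries). It was 1.35% against 0.659% at 501 to 1000 bp (296 entries), 0.502% against 0.658% at 1001 to 5000 bp (2389 entries) and 0.801% against 0.643% at 5001 to 20000 bp (8236 entries).

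The strands of 1 CpG often differed. At 88861 CpGs with both strands at full depth, the mean level in WWD was 2.66% on the forward and 2.61% on the reverse strand. Both strands were above 20% at 475 of them and only 1 strand at 4771. Where 1 strand was above 20%, the other was so in 16.6% of cases, and where it was not, in 2.77%. In tiles with fewer than 10 positions the shares were 17.6% and 9.31%. Pearson's r between the strands was 0.362 in WWD and 0.74 in WT over all 88861 CpGs, and 0.157 in WWD and 0.437 in WT over the 16701 in tiles with fewer than 10 positions. These values describe pools in which both strands come from the same libraries.

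The summed gain was spread unevenly over positions and over tiles. The top 1% of positions by gain, 9142, carried 14.4% of the summed gain, the top 10% carried 67.3% and the top 25% carried 94.6%. Ranked by summed gain, the top 1% of tiles carried 9.40% of it, the top 10% carried 46.5% and the top 25% carried 74.9%. Ranking by the gain that is then summed puts a top share above its nominal size in advance. Tiles also hold differing numbers of positions, so the ranking of positions and that of tiles are not compared. Counting error at single positions enters a ranking by gain, and its part was not tested.

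Along the genome the gain was similar between autosomes and lower on the X chromosome. In tiles with fewer than 10 WT positions, mean levels of single autosomes lay between 6.24% on chromosome 7 and 6.99% on chromosome 10 in WWD, and between 0.215% and 0.233% in TKO. The X chromosome held 4.64% in WWD and 0.226% in TKO (9962 positions), against 6.70% in WWD and 0.224% in TKO on all autosomes. WT also held less on the X chromosome there, 19.8% against 28.4% on the autosomes. In autosomal windows of 5 Mb with at least 200 such positions, the gain had a median of 6.25 points, with 5th and 95th percentiles of 4.01 and 7.75 points over 458 windows. The highest window was at chr3:145000001-150000000, with 9.57% in WWD and 0.19% in TKO. The lowest was at chr5:80000001-85000000, with 2.71% in WWD and 0.368% in TKO, and WT held 33.9% and 13.5% in the same order. The 27 windows of the X chromosome had a median gain of 4.12 points, and their highest, 6.22 points, was below the autosomal median.

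Within the full-depth positions the gain was 3.10 to 3.44 points across classes of the WWD to TKO read ratio. Where WWD had fewer than 0.8 times the reads of TKO the levels were 3.64% in WWD and 0.201% in TKO, and at ratios of 0.8 to 1.25 they were 3.27% and 0.165%. Where WWD had at least 1.25 times the reads of TKO they were 3.56% and 0.171%. The gain was lower at the lowest coverages. Among positions whose lower coverage in the 2 pools was 10 to 12 reads it was 2.80 points, and at 13 to 15 reads 2.87 points, against 3.22 points over all full-depth positions.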

How the data were processed

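Per the labels' protocols, DNA cut with MspI was size-selected in 2 ranges (150 to 250 bp, then 250 to 400 bp), treated with bisulfite and amplified by PCR. Bismark, methylKit and mm9 are named in the submitters' processing notes, and their versions are not given in the sources used here. For each CpG position and strand the authors deposited a coverage, which is a count of reads, and a percent of C among them, and no position has under 10 reads. The analysis used 5 of the deposited 6, and 8 columns of values were not used. The tables of WWD, WT, R and C were taken as pooled over 2 samples, an assumption that the labels do not state. Coverage over full-depth positions summed to 129831798 read calls in WWD and 125901888 in TKO.

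Methylated reads were recovered as coverage times the percent, rounded. Positions were joined on chromosome, base and strand with Python 3.11.15 and pandas 2.3.3, without the mitochondrial genome. Levels are means over positions. Fisher's exact test, checked against scipy 1.17.1 and tested on simulated data, was run on all positions covered in WWD and TKO. Named were the 10 tiles of largest gain with at least 5 full-depth positions, 5 tiles each with 20 to 39 and with 40 or more WT positions (at least 10 at full depth), the 5 called positions of largest gain with at least 50 reads in both pools, and the 3 longest runs. The positions, classes and thresholds were chosen with earlier results of these data known. The classes by place in the read and by local density were added after these data were examined. No genome or annotation of mm9 was used here, so no gene or sequence is given.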

Additional observations from a re-analysis of the deposited data

How the results depend on the processing

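No paired analysis was possible because both numbered samples of a group share 1 table, and for the same reason no replicate could be left out. No alternative changed the sign of a mean gain, of the density contrast or of the clustering contrast, and the cause of each shift was not tested unless the setting itself gives it. The density contrast below is the mean gain in tiles with under 10 WT positions minus that in tiles with 40 or more, 6.19 points as reported, and the clustering contrast is the difference in shares at 501 to 1000 bp, 9.59 points. Levels in WWD and TKO and the gain were 3.42%, 0.163% and 3.25 points with reads pooled, 3.40%, 0.169% and 3.23 points with a coverage minimum of 20, and 3.40%, 0.167% and 3.24 points with 30, where 0.244% were above 50%. A read ratio of at least 0.75 gave 3.47%, 0.167% and 3.30 points, 0.246% above 50% and a density contrast of 6.04 points. Without a ratio rule they were 6.19%, 0.499% and 5.69 points, with 9.71% above 20%, 2.97% above 50%, a density contrast of 11.4 points, 647 dense tiles gaining 10 points and 78980 called positions. With the ratio taken to C they were 3.86%, 0.206% and 3.65 points, with 5.25% above 20%, 0.615% above 50% and contrasts of 7.04 points for density and 10.3 points for clustering. On autosomes WWD had 3.41%, the gain was 3.24 points and the density contrast 6.25 points. With strands merged they were 3.47%, 0.169% and 3.30 points, with 0.251% above 50%. Inner CpGs alone, a setting added after the data were examined and made mostly of sparse tiles, gave 8.83%, 0.0599% and 8.77 points, with 14.3% above 20%, 1.05% above 50% and a density contrast of 8.85 points. Density by TKO positions gave a contrast of 6.14 points and 99 dense tiles. Tiles of 2 kb, with the position limits of the 1 kb tiles kept, gave 6.10 points and 408. The clustering contrast was 1.35 points for sites above 50% and 5.20 points in tiles with under 10 positions. Called positions numbered 81731 at 10 points and 2477 at 50 points. The other settings kept values within counting error, or counts within 1.5 times. Depth limits single levels: 0 methylated reads of 125 allow up to 2.4%.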
